A study of Mus musculus with 2 samples.

Results

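Enteroendocrine hormones are the peptide products of the scattered endocrine cells of the gut epithelium, and 10 genes were examined here: Cck, Gcg, Gip, Sct, Sst, Pyy, Ghrl, Nts, Tac1 and Chga. Members were taken by gene symbol, and all probesets annotated to these symbols were used, 11 of the 45037 non-control probesets on the array. A probeset is a group of short probes that are read together, for 1 or more transcripts. All 10 genes gave a value, among 11706 genes measured in all. None of the 10 was 1.5-fold apart between the diets, beside 14.1% of all measured genes. In the signal groups of probesets that held these genes, the shares were lower, at 8.68% and, in the brightest group, 5.86%. A count of none among 10 is thus near the background for probesets of this signal. Of the 10, Gip, the incretin of the upper intestine, was farthest apart, with a signal 1.33-fold lower on EPA&DHA.

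The EPA&DHA group received a semisynthetic high-fat diet in which 44% of the lipids came from a concentrate with 6% EPA and 51% DHA, the marine n-3 fatty acids. The control group received the same diet with flaxseed oil, rich in the plant n-3 fatty acid ALA, as its only fat. All mice were male C57BL/6J, an inbred strain, were 4 months old and spent 4 weeks on a diet with 20% fat by weight. RNA of 11 of 12 EPA&DHA mice and of 10 of 12 control mice was combined into 1 pool per diet, and an Affymetrix mouse array was run on each pool. With 1 array per diet there were no replicates, the spread over mice is unknown, and the values below are given without tests. The methods describe scraped epithelial cells, while the sample labels describe complete, homogenized small intestine. In such bulk RNA, fewer endocrine cells and less hormone RNA per cell cannot be told apart.

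Enteroendocrine cells sense nutrients, among them long chain fatty acids, at their luminal face and release peptides at their base, where these reach blood vessels and nerves. The hormones follow the length of the gut. Gip, Cck, secretin and ghrelin are made mainly in its upper part, and the products of Gcg, Pyy and Nts mainly further down. Each peptide is cut from a longer precursor and stored in granules with chromogranins.

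Values are MAS5 signals, in arbitrary units, and ratios are EPA&DHA over control. A signal under 50 on an array was marked as near background. Ratios were read against the local SD, a robust SD of the log2 ratios of the 500 probesets nearest in mean signal. The local SD describes the scatter between these arrays, including any effect of diet, and is not an error over mice. Of the 10 hormone genes 3 were beyond 1 local SD and 0 beyond 2. The share of all probesets beyond 1 local SD was not counted, so passing it does not set a gene apart. Of the 11706 measured genes, 14.1% were at least 1.5-fold apart, with 6.18% higher and 7.94% lower on EPA&DHA, whereas 0 of the 10 hormone genes passed 1.5-fold in either direction. At 2-fold the count was also 0 of 10, beside 3.80% of all genes, 1.56% higher and 2.24% lower. Such shares depended on signal. All 10 hormone genes lay in the upper 2 of 4 equal groups of kept probesets ordered by signal, where 8.68% and, in the highest group, 5.86% of probesets passed 1.5-fold, beside 18.3% in the group below these and 34.9% in the lowest. A count of 0 among 10 genes is therefore near the background for probesets of this signal.

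**Figure D1:**
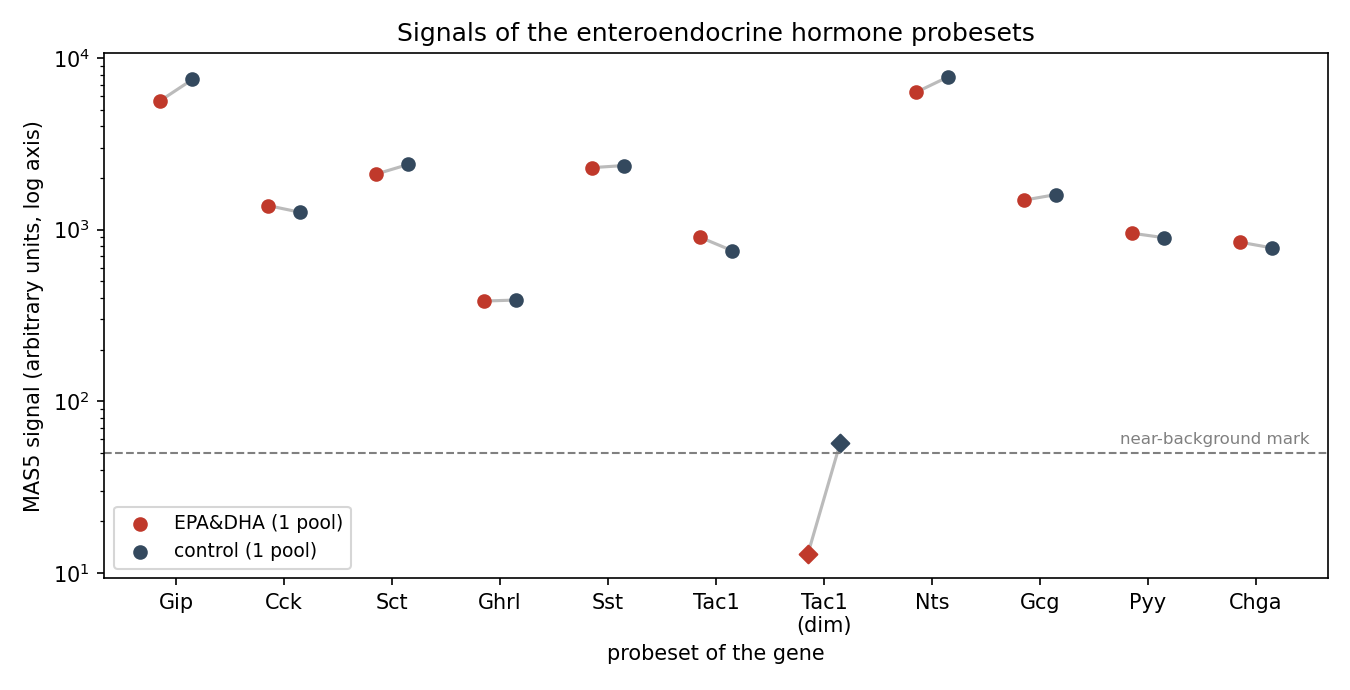
MAS5 signal (y axis, log scale) of the 11 hormone probesets (x axis) on the EPA&DHA array (red) and the control array (dark), with 1 RNA pool per point. Circles are the probesets that stand for their gene, diamonds mark the dim second probeset of Tac1, and the dashed line is the signal of 50 under which values were marked; the pairs of circles lie close together on both diets and all lie above the line.

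Among the hormones of the upper small intestine, Gip had a log2 ratio larger than its local SD, and Sct, Cck and Ghrl did not. Gip encodes the glucose-dependent insulinotropic peptide of K cells, which raises insulin release after a meal. On its probeset, 1449908_at, the signal was 5626 in the EPA&DHA pool and 7495 in the control pool. The log2 ratio of -0.41 was 1.67 times its local SD of 0.25, the farthest of the 10 genes from 0 on this scale. Sct encodes secretin, the S cell peptide that stimulates bicarbonate secretion by the pancreas, and its probeset 1418805_at gave signals of 2104 on EPA&DHA and 2397 on the control diet. This log2 ratio of -0.19 was within 1 local SD of 0.23.

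Cck encodes cholecystokinin, which I cells release in response to fat and protein and which empties the gallbladder. Its probeset 1419473_a_at gave 1380.0 on EPA&DHA and 1261 on the control diet. The ratio was 1.09 and the log2 ratio of 0.13 lay within 1 local SD of 0.25. Gip of K cells and Cck of I cells lay on opposite sides of 0. Their log2 ratios were 0.54 apart, against a combined local SD of 0.35 for the pair. It is 1 of 11 such pairs among 45, for which no background was counted. Ghrl encodes ghrelin, the appetite-stimulating peptide made mostly in the stomach and also by cells of the upper intestine. Signals on 1448980_at were 383 on EPA&DHA and 389 on the control diet, a log2 ratio of -0.02 that was above 0 under 2 of 11 alternative settings.

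Among hormones of the lower small intestine, Nts differed most. It encodes neurotensin, the N cell peptide that is released by fat and promotes its absorption. On probeset 1422860_at the signal was 6292 in the EPA&DHA pool and 7756 in the control pool, 1.23-fold lower on EPA&DHA. The log2 ratio was -0.30 and exceeded its local SD of 0.24. Gcg, the precursor of the L cell peptides GLP-1, GLP-2 and oxyntomodulin, had signals of 1483 (probeset 1425952_a_at) on EPA&DHA and 1599.6 on the control diet. Pyy, the peptide YY gene of L cells, which slows gut transit and reduces appetite, had signals of 953 (probeset 1424865_at) on EPA&DHA and 897 on the control diet. The log2 ratios of these L cell hormones were -0.11 for Gcg and 0.09 for Pyy. They were 0.20 apart, less than the combined local SD of 0.36.

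Sst, Tac1 and Chga are less tied to a region. Sst encodes somatostatin, the D cell peptide that inhibits the release of most other gut hormones, and it is also made by enteric neurons. The signals of 1417954_at, 2295 on EPA&DHA and 2362 on the control diet, were 1.03-fold apart. Chga encodes chromogranin A, a granule protein shared by most endocrine cell types, and its probeset 1418149_at gave 846 on EPA&DHA and 783 on the control diet. Its log2 ratio of 0.11 was within 1 local SD of 0.26.

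Tac1 encodes substance P and neurokinin A, made by serotonin-producing enterochromaffin cells and by enteric neurons. On its first probeset, 1416783_at, the signal was 903 on EPA&DHA and 754 on the control diet, 1.20-fold higher on EPA&DHA. This log2 ratio of 0.26 was the highest of the 10 genes and 1.02 times its local SD. Tac1 was also the only member with more than 1 probeset. The second, 1431883_at, gave signals of 12.8 on EPA&DHA and 56.9 on the control diet, a log2 ratio of -2.15. It was marked near background on EPA&DHA, its mean signal of 27.0 was under the lowest mean signal kept, 50.8, and it did not enter the value of the gene. The probesets of Tac1 thus pointed in opposite directions, and only the brighter one was well above the mark on both arrays. Each of the other 9 genes rests on 1 probeset.

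**Figure D2:**
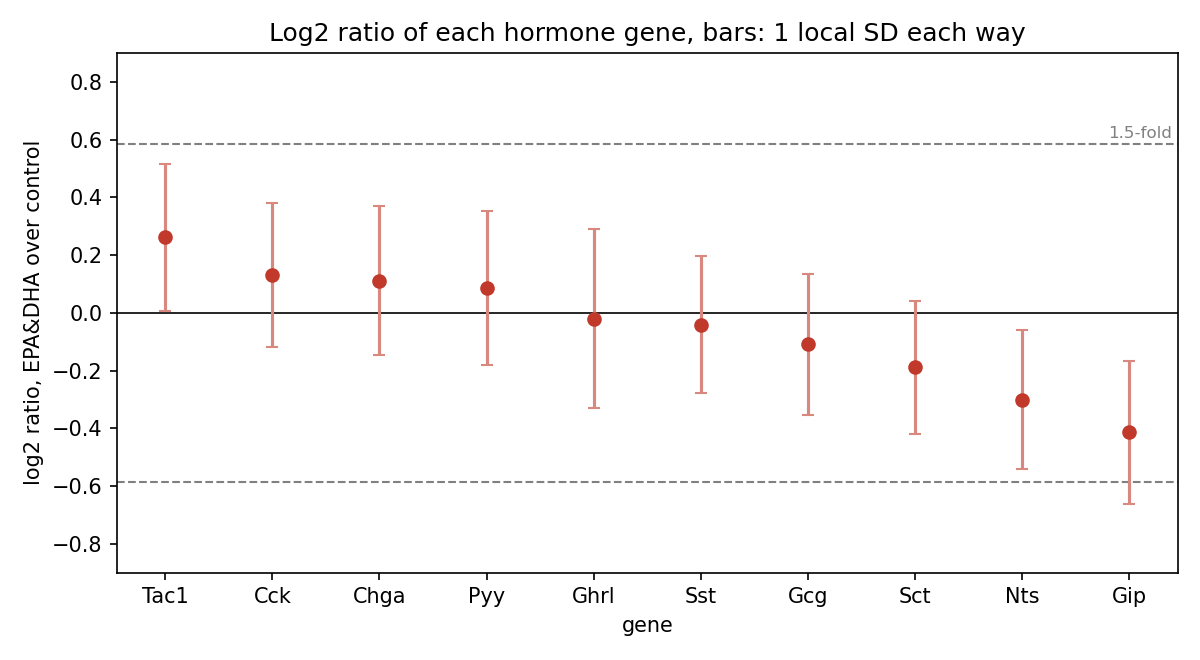
Log2 ratio of EPA&DHA over control (y axis) of the 10 hormone genes in order of their ratio (x axis). Bars reach 1 local SD each way and describe the scatter between the arrays at that signal, not an error over mice. Dashed lines mark 1.5-fold. The ratios run from 0.26 for Tac1 to -0.41 for Gip. The bars of Tac1, Nts and Gip do not reach 0, which alone does not set these genes apart.

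In order of log2 ratio the genes ran Tac1, Cck, Chga, Pyy, Ghrl, Sst, Gcg, Sct, Nts and Gip, with 4 above 0 and 6 below. Neighbours in this order were at most 0.13 apart, and the smallest combined local SD of any pair was 0.33, so no neighbours differed beyond the scatter. Over all 45 pairs, 11 were apart by more than their combined local SD and 0 by more than 2 times that value. How often pairs of other genes pass this was not counted, so the 11 pairs are not set apart. Tac1 and Gip, at the ends, differed by 0.67 against a combined local SD of 0.36. The median log2 ratio of the 10 genes was -0.03, beside -0.05 for all genes, and the median size of the log2 ratio, regardless of sign, was 0.12, beside 0.22 for all genes. In the highest signal group of probesets this size was 0.17, and in the group below it 0.20.

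**Figure D3:**
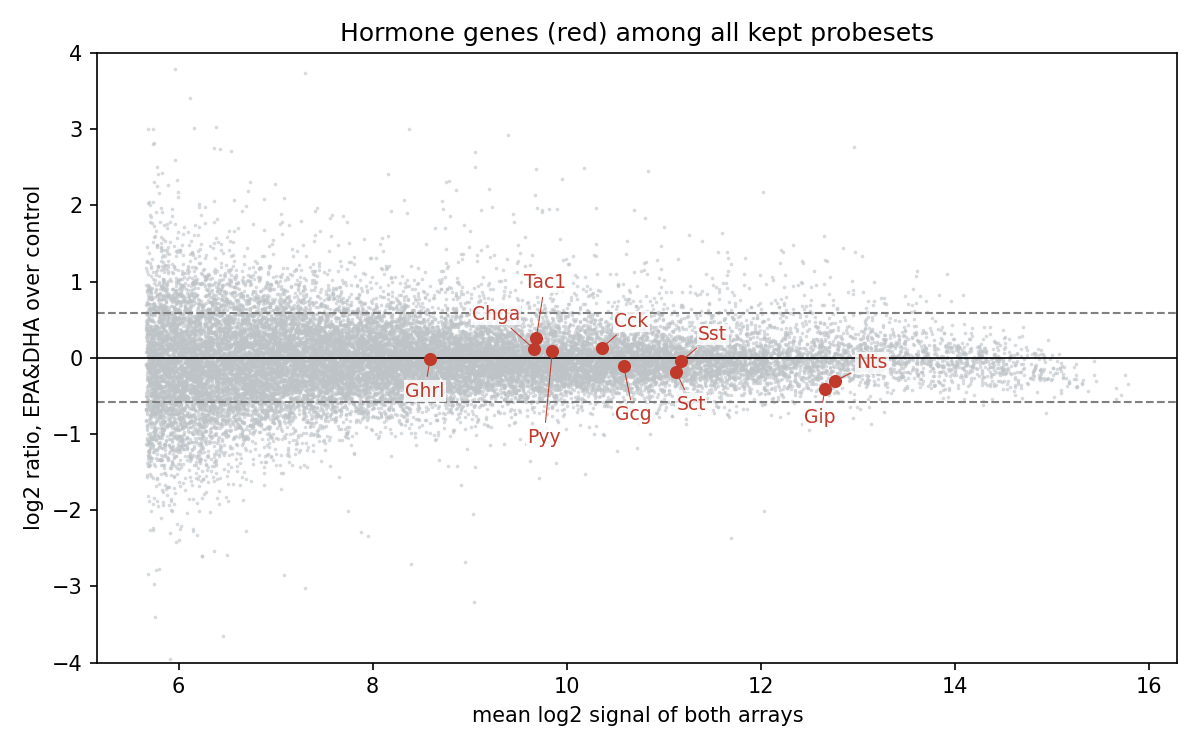
Log2 ratio of EPA&DHA over control (y axis) against the mean log2 signal of both arrays (x axis) for all kept probesets (grey) and for the 10 hormone genes (red), with dashed lines at 1.5-fold. The hormone genes sit inside the main band of probesets of their signal, with Gip and Nts toward its lower edge.

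The 5′ flanks of the genes were compared because an element that responds to cAMP and calcium signals, TGACGTCA, is a known feature of the Sst promoter. Sequences came from the RefSeq promoter table for GRCm38.p6, which held all 10 genes. The 250 bases before each listed start were searched on both strands. The whole element was found for Sst alone, and in 1.77% of 27025 genes. Its core, TGACG, which lies within the whole element, was found in Cck, Sst, Nts, Tac1 and Chga, 5 of 10 genes, and in 19.8% of all genes. These windows are shown so that the place of the element can be compared, with the element in capitals (CGTCA is TGACG on the other strand):
Sst (chr16:23890860-23890917, minus strand): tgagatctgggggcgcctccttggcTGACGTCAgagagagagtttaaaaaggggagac
Chga (chr12:102554872-102554926, plus strand): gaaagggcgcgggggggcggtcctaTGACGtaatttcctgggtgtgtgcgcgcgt
Cck (chr9:121495712-121495766, minus strand): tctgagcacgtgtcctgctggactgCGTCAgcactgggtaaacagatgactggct
Tac1 (chr6:7554993-7555047, plus strand): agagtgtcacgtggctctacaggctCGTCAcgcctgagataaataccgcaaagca
Nts (chr10:102490555-102490609, minus strand): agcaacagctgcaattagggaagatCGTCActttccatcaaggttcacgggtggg

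The element or its core began 48, 44, 47 and 43 bases before the start in Sst, Chga, Cck and Tac1, and 166 bases before it in Nts. A further copy in Tac1 began 197 bases before the start. The 5 genes with the core had log2 ratios on both sides of 0, from 0.26 for Tac1 to -0.30 for Nts. AGGTCA, a unit of the elements bound by nuclear receptors such as PPAR, was found for Sct and Ghrl, 2 of 10 genes, and in 15.8% of all genes. The DR1 element, a direct repeat of this unit with 1 base between, was found in none of the 10 genes and in 0.0407% of all genes. A match describes these letters only and shows no binding. The Sct window is given as the example.
Sct (chr7:141279217-141279272, minus strand, AGGTCA in capitals on the other strand): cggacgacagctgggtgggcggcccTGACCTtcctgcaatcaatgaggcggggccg

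Genes that make other gut hormones and amines gave a similar picture. Of 14 such genes 9 were measured, 0 passed 1.5-fold upward and 1 passed it downward, and the median log2 ratio was 0.02. Tph1, which makes serotonin in enterochromaffin cells, had signals of 483 on EPA&DHA and 400 on the control diet, a log2 ratio of 0.27 beside a local SD of 0.34. Ddc, which catalyses the next step of serotonin synthesis, had 10697 on EPA&DHA and 10539 on the control diet, and its log2 ratio was 0.02. Slc18a1, which loads serotonin into granules, had 408 on EPA&DHA and 388 on the control diet, a log2 ratio of 0.07. The log2 ratios of Tph1, Ddc and Slc18a1 were each within 1 local SD. The gene past 1.5-fold downward was Adm, the vasodilator adrenomedullin, with signals of 92.7 on EPA&DHA and 157 on the control diet and a log2 ratio of -0.76. Guca2a and Guca2b, the guanylin hormones that drive intestinal fluid secretion, had log2 ratios of -0.09 and -0.10. Gastrin (Gast), pancreatic polypeptide (Ppy), Insl5 and Vip were not kept, with signals under 50 on both arrays.

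Granule and processing genes had somewhat higher ratios. Of 15 listed, 9 were measured, 7 lay above 0, 1 was at least 1.5-fold higher and 0 lower, and the median log2 ratio was 0.27, beside -0.05 for all genes. Chgb, the chromogranin that accompanies Chga in granules, had 4625 on EPA&DHA and 4409 on the control diet, a log2 ratio of 0.07. Cpe, the carboxypeptidase that trims hormone precursors, had 997 on EPA&DHA and 938 on the control diet, a log2 ratio of 0.09. Pam, which amidates peptides such as Cck and Pyy, was 1.68-fold higher, with 120 on EPA&DHA and 71.3 on the control diet and a local SD of 0.58. The higher ratios of this list came from dim probesets, and Pcsk1, the convertase that cuts proglucagon into GLP-1, stood at -0.16. The list contains none of the 10 hormone genes.

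Transcription factors of the endocrine lineage lay mostly below 0. Of 19 listed, 10 were measured, 8 of them below 0, with 0 past 1.5-fold upward, 1 past it downward and a median log2 ratio of -0.34. Rfx3, which endocrine cells of the mouse pancreas need to form, was the lower one, with 83.5 on EPA&DHA and 152 on the control diet and a log2 ratio of -0.86 beside a local SD of 0.51. Among the brighter ones, Atoh1, which commits progenitors to all secretory lineages, had 950 on EPA&DHA and 1124 on the control diet. Foxa1, which acts with Foxa2 on Gcg, had 841 on EPA&DHA and 1073 on the control diet, a log2 ratio of -0.35 beside a local SD of 0.27. Neurod1, which drives secretin expression, had 322 on EPA&DHA and 333 on the control diet, a log2 ratio of -0.05. Neurog3, the factor required for endocrine cells to form, had 68.7 on EPA&DHA and 94.5 on the control diet, a log2 ratio of -0.46 with a local SD of 0.64. The kept probesets of Insm1 differed in sign, with log2 ratios of -0.33 and 0.57. So did those of Isl1, at 0.16 and -0.32, and those of Neurod1, at -0.05 and 0.01. Of the genes below 0, only Rfx3, Foxa1 and Pdx1 were beyond 1 local SD.

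Many nutrient sensors had no probeset of their own, and most receptors were dim. Of 14 sensor genes 7 were measured, 1 past 1.5-fold upward and 1 downward, with a median log2 ratio of -0.12. Of the 7 not measured, 6 had no probeset of their own. Slc5a1, the brightest one measured, had 28348 on EPA&DHA and 30337 on the control diet, a log2 ratio of -0.10. Its other kept probeset stood at 0.74. Kcnj11 had 785 on EPA&DHA and 718 on the control diet, a log2 ratio of 0.13. Ffar4, a receptor for long chain fatty acids that include EPA and DHA, had 111 on EPA&DHA and 155 on the control diet, a log2 ratio of -0.48 within 1 local SD of 0.49. Neurog3 and Ffar4 are named for their roles, after their values were seen. Trpm5, a cation channel of tuft and some endocrine cells, had 155 on EPA&DHA and 300 on the control diet, and its other kept probesets ranged from -0.97 to 0.51. The higher sensor gene, Abcc8, a subunit of the channel that couples glucose to release, was marked near background on the control array with 46.7, against 70.3 on EPA&DHA. Of 23 receptor genes for these hormones 3 were measured, and 15 of the 22 with a probeset of their own had signals under 50 on both arrays. Sort1, a sorting receptor that binds neurotensin, had 1329 on EPA&DHA and 1736 on the control diet, a log2 ratio of -0.39. Sstr2 and Ntsr2, the other receptors measured, were marked near background on an array each.

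All 8 peptidases listed as cutting these hormones were measured, 1 past 1.5-fold upward and 0 downward. Mme (neprilysin), which cleaves substance P and neurotensin, had 15152 on EPA&DHA and 9927 on the control diet, 1.53-fold higher with a log2 ratio of 0.61 beside a local SD of 0.23. Its other kept probeset stood at 0.01. Dpp4, which inactivates GLP-1 and Gip, stood at -0.11 on the log2 scale by its brightest probeset and at 0.07 to 0.27 by the others.

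**Figure D4:**
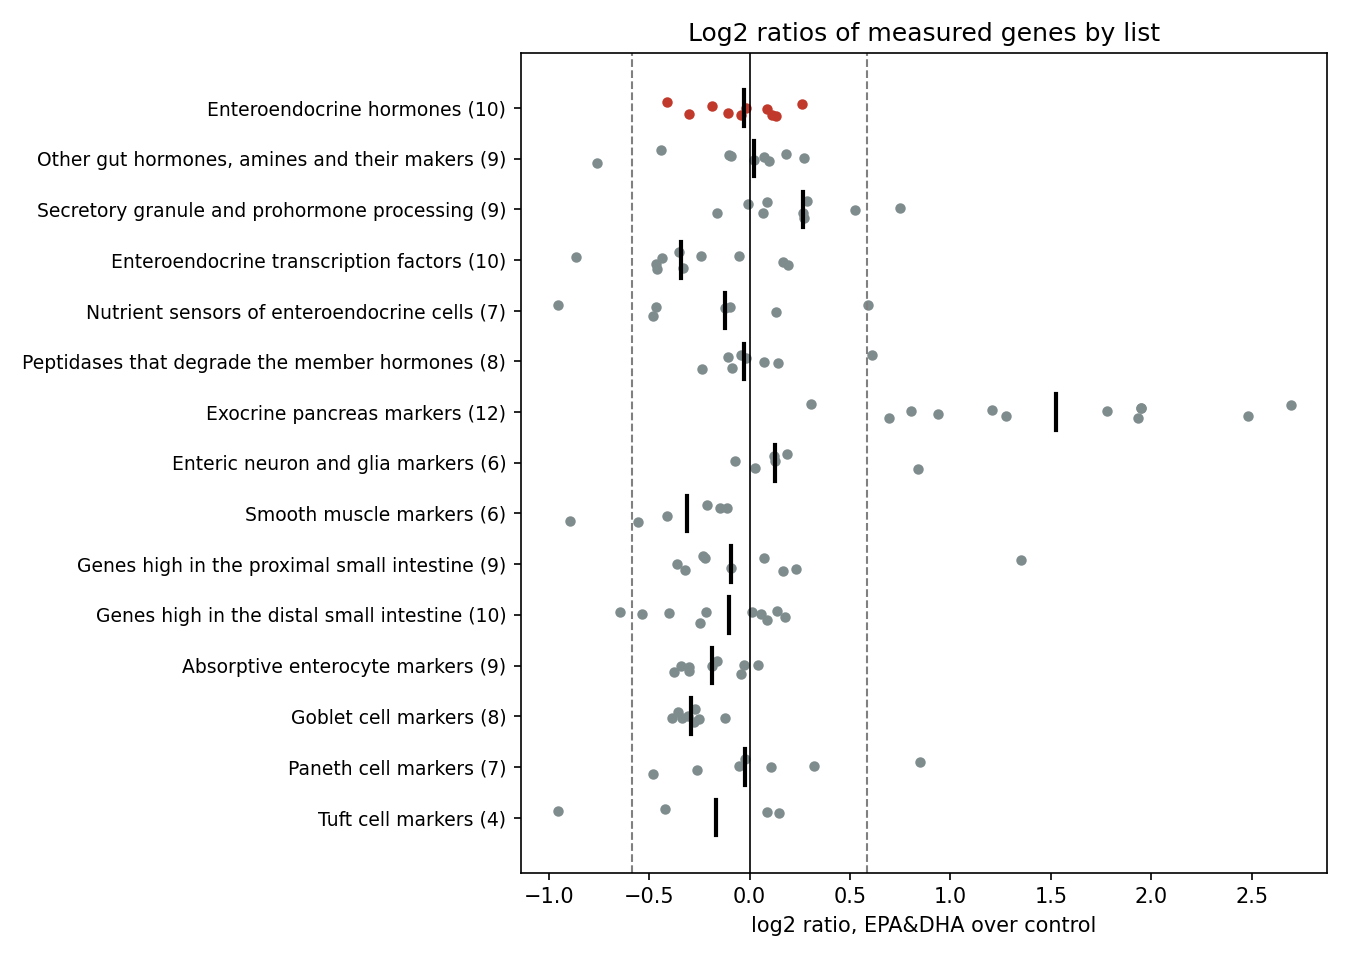
Log2 ratio of EPA&DHA over control (x axis) of each measured gene (points) in the hormone list (red) and 14 other lists with at least 4 measured genes (grey), with the number of measured genes in brackets, black bars at the list medians and dashed lines at 1.5-fold. The hormone genes stay within the dashed lines around a median of -0.03, while exocrine pancreas markers have a median of 1.53.

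Some hormones are also made outside the gut epithelium, so markers of other cells are given beside them. Pancreatic islets make Gcg and Sst, and 11 of 12 measured genes of the exocrine pancreas, the tissue around the islets, passed 1.5-fold upward on EPA&DHA, with 0 downward. Their summed signal was 19851 on EPA&DHA and 7867 on the control diet, and Cpb1, a carboxypeptidase, had 1353 on EPA&DHA and 209 on the control diet. Of 9 islet markers only 2, Iapp and Ttr, were measured, with log2 ratios of 0.10 and -0.20 and a summed signal of 836 on EPA&DHA and 882 on the control diet. Their other kept probesets ranged from -0.33 to 0.66 for Iapp and from -0.14 to 0.64 for Ttr. The median of both genes was -0.05 on the brightest probesets and 0.16 with the mean of kept probesets. The islet markers thus had no settled direction. Iapp is also counted among the other gut hormones above, so it does not mark islet RNA alone. Ins2, the defining islet gene, was not kept, with 16.6 on EPA&DHA and 52.3 on the control diet. Other islet markers that were not kept went the other way. Without a filter, 2 of 7 islet markers passed 1.5-fold upward, Ucn3 and Ppy, and 1 downward, Ins2. The signals of Ucn3 and Ppy were under 50 on both arrays, so these dim values set no direction either. Gcg and Sst stood at -0.11 and -0.04. The part of pancreatic RNA in the values of Gcg and Sst was not tested.

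Enteric neurons make Tac1 and Sst. Of 16 neuron and glia markers 6 were measured, 1 past 1.5-fold upward and 0 downward, with summed signals of 506 on EPA&DHA and 446 on the control diet and a median log2 ratio of 0.12. The higher one was Nos1, the neuronal nitric oxide synthase, with 91.8 on EPA&DHA and 51.4 on the control diet. The neuronal genes Elavl4, Uchl1 and Vip were not kept. Of 11 stomach markers, listed because the stomach makes most ghrelin, 2 were measured, with summed signals of 521 on EPA&DHA and 413 on the control diet. Atp4b, a subunit of the gastric proton pump, had 107 on EPA&DHA and 32.7 on the control diet, where it was marked near background. Of the other 9, Muc6 had no probeset of its own and 8 were not kept, among them Muc5ac and Pgc, with signals under 50 on both arrays. Gkn2 and Tff2, secreted peptides of the stomach lining, had 86.1 and 69.7 on EPA&DHA and 18.6 and 17.0 on the control diet, where they were near background. Without a filter, 5 of 10 stomach markers passed 1.5-fold upward and 1 downward, beside 2633 upward and 3552 downward of all 18193 genes. The part of neuronal and gastric RNA in the values of Tac1, Sst and Ghrl was not tested.

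Gip and Nts, the hormones with the lowest ratios, come from opposite ends of the small intestine. Genes high in its proximal part, 9 of 11 measured, had a median log2 ratio of -0.09, and those high in its distal part, 10 of 10 measured, had -0.10. After quantile normalization these medians were 0.07 and -0.04. In the proximal list 1 gene was at least 1.5-fold higher, S100g, an intestinal calcium-binding protein, with 1985 on EPA&DHA and 779 on the control diet. In the distal list 1 gene was at least 1.5-fold lower, Ceacam20, an adhesion protein of the brush border, with 5131 on EPA&DHA and 8020.0 on the control diet.

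Of the markers of neighbouring epithelial cells, those of goblet cells and enterocytes lay mostly below 0. All 8 goblet cell markers were measured and were below 0 on their brightest probesets, with a median log2 ratio of -0.29 and a summed signal of 137275 on EPA&DHA and 172058 on the control diet. The other kept probeset of Agr2, a goblet cell protein that helps to fold mucins, had 785 on EPA&DHA and 304 on the control diet, a log2 ratio of 1.37 against -0.27 on the brightest. Absorptive enterocyte markers had 8 of 9 below 0 and a median of -0.19, which was -0.04 after quantile normalization. On the brightest probesets, none of the genes of either list passed 1.5-fold. Fabp2 and Vil1, defining genes of the absorptive epithelium, were present as the labelled tissue requires, with 40590 and 23996 on EPA&DHA and 50059 and 24490 on the control diet. Of 6 smooth muscle genes measured all 6 were below 0, with a median log2 ratio of -0.31 and 1 past 1.5-fold downward, Synm, which was marked near background on EPA&DHA. Of 4 tuft cell genes measured 2 were above 0 and 2 below, with a median log2 ratio of -0.17, and 1 passed 1.5-fold downward, Trpm5. Of 7 Paneth cell genes 3 were above 0 and 4 below, with a median of -0.03. The brightest, Lyz1 and Ang4, were below 0, at -0.26 and -0.48, each beside a local SD of 0.20. The summed signal of the list was 61696 on EPA&DHA and 74253 on the control diet. In that list 1 gene passed 1.5-fold upward, Sox9, which also marks progenitor cells, and its other kept probeset stood at 0.22. With the mean of kept probesets 0 Paneth cell genes passed 1.5-fold upward and 1 downward. The 6 hormone genes below 0, from Ghrl at -0.02 to Gip at -0.41, lay on the same side of 0 as the goblet cell and enterocyte medians. The other 4 hormone genes lay above 0. The median of all genes was itself below 0, at -0.05, and Ghrl and Sst lay above that median. The part of goblet cells and enterocytes in the hormone values was not tested.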

How the data were processed

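RNA pools from the small intestine of mice fed EPA&DHA or the control diet were hybridized by the authors to 1 Affymetrix MOE430_2 array each. The deposited values are probeset intensities on a linear scale, summarized by the authors with MAS5 (version not given in the sources used here) and scaled to a 2% trimmed mean of 500. Detection calls and change p-values were not used here.

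Of 45101 probesets, 64 controls were set aside. Names from the platform annotation were updated through gene identifiers to RefSeq: 34945 probesets named 1 gene, 932 several and 9160 none. Trimmed means were set equal, and log2 ratios of EPA&DHA over control were taken. A filter kept the brightest 54% of probesets by mean log2 signal (24320). A gene took its brightest kept probeset that names it alone. The local SD is a scaled median absolute deviation over 500 probesets. Gene lists were written from general knowledge, and members and lists were chosen with earlier results of these data known. All members were named. In other lists, genes named were drawn from those at least 1.5-fold apart, the 3 with the highest signal, and some chosen for their role after their values were seen. Scripts were tested on simulated data. With 2 arrays, their number limits the precision. Alternatives covered scaling, offsets, filters and the choice of probeset. Calculations used pandas 2.3.3 and numpy 2.4.6 under Python 3.11.15, loess came from statsmodels 0.14.6, and plots were drawn with matplotlib 3.10.9.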

Additional observations from a re-analysis of the deposited data

How the results depend on the processing

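Under 11 alternative settings of scaling, offset, filter and probeset choice, the count of hormone genes at least 1.5-fold apart stayed at 0 in both directions. Each hormone gene has 1 kept probeset, with signals of at least 383. The settings of filter and probeset choice could therefore not change the hormone values, and their stability there was fixed in advance. Signals as deposited already had equal trimmed means, so only the other scalings and the offsets could move these values. The log2 ratio of Gip ranged from -0.43 to -0.38, that of Nts from -0.33 to -0.27 and that of Tac1 from 0.25 to 0.30. Ghrl, at -0.02, was above 0 under 2 of the 11 settings, and the median of the 10 genes ranged from -0.03 to 0.01. In the other lists, filters and probeset choice could change the values. There 41 of 374 counts moved, that is by more than 1.5 times or to or from 0. More of these counts moved without a filter than under any other setting. Without a filter, 6 of 22 receptor genes passed 1.5-fold upward and 10 downward, on dim signals. Averaging all kept probesets of a gene left 0 peptidases past 1.5-fold. With an offset of 50 added to each signal, Adm, Pam, Abcc8, Ntsr2, Nos1, Synm and Sox9 no longer passed 1.5-fold. The median of the granule list ranged from 0.18 to 0.30 and that of the transcription factors from -0.34 to -0.26. Of all 11706 genes, 724 passed 1.5-fold upward and 930 downward, and 409 and 481 did so with that offset. Without a filter, 2633 and 3552 of 18193 genes did so. No paired analysis was possible because there is 1 array per diet. Leaving out a replicate was not possible for the same reason. With 1 pool per diet, the spread between mice cannot be estimated, and signals near 50 limit what can be read from most receptors and some sensors.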
